A study of Mus musculus with 17 samples.

Results

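Interferon-stimulated genes are the genes that a cell switches on when it senses an interferon, and 31 of them, chosen by name, were followed here in cells washed from mouse lungs. Every probe set of the array annotated to exactly 1 of the 31 genes was used, which gave 41 probe sets for 29 genes. After a filter on low signal, 40 probe sets of 28 genes remained and were tested, out of 18193 genes with such a probe set and 13390 tested on the whole array. Isg15 and Ifi44 had no probe set annotated to 1 gene and are not analysed here, and the probe set of Mx2 stayed under the filter, above the 40th percentile on 0 arrays, and was not tested.

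Interferons are secreted proteins that warn neighbouring cells of infection or other danger. Type I interferons, such as interferon beta, act through the receptor chains Ifnar1 and Ifnar2 and lead to a transcription factor complex that holds Stat2 and Irf9, which binds interferon-stimulated response elements (ISRE). Type II interferon, interferon gamma, comes mainly from T cells and NK cells, acts through Ifngr1 and Ifngr2, and works largely through gamma-activated sites (GAS) and the factor Irf1; in macrophages it is the classical activating signal. Of the members, 24 are known mainly for type I interferon, 5 for type II (Irf1, Ifi47, Irgm1, Igtp and Gbp2), and Stat2 and Irf9 belong to the response to both.

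The cells came from bronchoalveolar lavage, a wash of the airways and air spaces, of A/J mice, an inbred strain from the Jackson Laboratory that is prone to lung tumours. The 6 control arrays were from untreated mice of matched age, and the 11 urethane arrays were from mice treated with urethane, a chemical that gives such mice lung tumours. The labels give no age, dose or time after treatment, and they do not say whether each number in them is 1 mouse, so p-values measure only the spread between these RNA samples. Each array carried 1 RNA sample and is named by its group and label number, with a pair of numbers for control 6_13. All labels also describe the material as lung tissue of normal mice, although the source is given as lavage cells. The 18 tested alveolar macrophage markers, among them Marco, Fabp4 and Itgax, had a mean log2 signal of 13.75 to 13.93 in controls and 13.53 to 14.05 after urethane.

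Values are log2 of the deposited linear signal plus 17.1, so differences of dim genes are understated, and all comparisons are urethane minus control by limma with Benjamini-Hochberg adjustment over the 13390 genes at a threshold of 0.05. In that comparison 421 genes passed, 268 higher and 153 lower after urethane. The arrays were scanned on separate days, with 2 control and 5 urethane arrays on scan day 1 and 4 control and 6 urethane arrays on scan day 2, so values are also given with scan day as a block. Control 36 stood apart from the other 5 controls in the members described here, so values are also given without it. When array medians were set equal, the median difference of all genes moved from -0.03 to 0.18, and of 182 genes that passed 91.2% were higher, against 63.7% of the 421.

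Of the 28 members tested, 2 rose after urethane and 0 fell. The 2 were Ifi47, an interferon-induced GTPase, with a log2 difference of 0.68, and Irf9, the DNA-binding subunit of the complex named above, with 0.55. This was 7.14% of the members, beside 2.00% of all genes that rose and 1.14% that fell. Differences were above 0 for 27 of the 28 members, beside 45.6% of all genes, with a median over the type I members of 0.44 and over the type II members of 0.38, against -0.03 over all genes. Irf7, Ifit1, Ifit2, Oas2, Oas3, Oasl1, Oasl2, Mx1, Usp18 and Cmpk2, all type I, passed the filter on low signal only with the urethane arrays. Their part in this count and median is a description. With the filter at the 60th percentile the type I median was 0.35, against -0.01 over all genes. With RNA quality ratios of control probe sets as covariates, 21 of the 28 were above 0, with no share of all genes counted in that fit. The medians in it were 0.22 over the type I and 0.37 over the type II members, against -0.05 over all genes. Irf9 did not pass in it (0.47, adjusted p = 0.10). At an unadjusted p under 0.05 without covariates, 14 members were higher and 0 were lower, a count with no share of all genes beside it. In the fit over probe sets, which called 1.23% of all probe sets higher, the probe sets of Ifi47 and Irf9 were again the only member probe sets past the threshold, with adjusted p of 0.042 and 0.047. More than 1 probe set was kept for 9 of the tested members, and for Ddx58, Rsad2, Ifi35 and Xaf1 these differed in sign.

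Blocking on scan day, 7 members rose (Irf9, Oas1a, Oas2, Oasl2, Ifi47, Irgm1 and Igtp), 25.0% of them beside 4.31% of all genes. Without control 36, 11 members rose (Irf9, Ifit1, Ifit2, Oas1a, Oas2, Oasl2, Bst2, Xaf1, Ifi47, Irgm1 and Gbp2), 39.3% beside 3.26% of all genes. Control 36 was singled out because it was high in these same members, so leaving it out raises their differences, and leaving out any 1 of the other 5 controls gave 0 or 1 member that rose. With the block and without control 36 the count was 13, 46.4% beside 5.28% of all genes. The counts of 7, 11 and 13 include Oas2 and Oasl2, the 11 and the 13 also Ifit1 and Ifit2, and the 13 also Oasl1. These genes passed the filter on low signal only with the urethane arrays, so their part in the counts is a description. Without urethane 33, 35 and 36, the arrays of highest 20th percentile signal, only Ifi35 passed, beside 1.67% of all genes, and this choice of arrays was made after the data were seen. In these 4 fits 0 members fell, beside 3.44%, 1.47%, 3.67% and 1.38% of all genes.

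**Figure D1:**
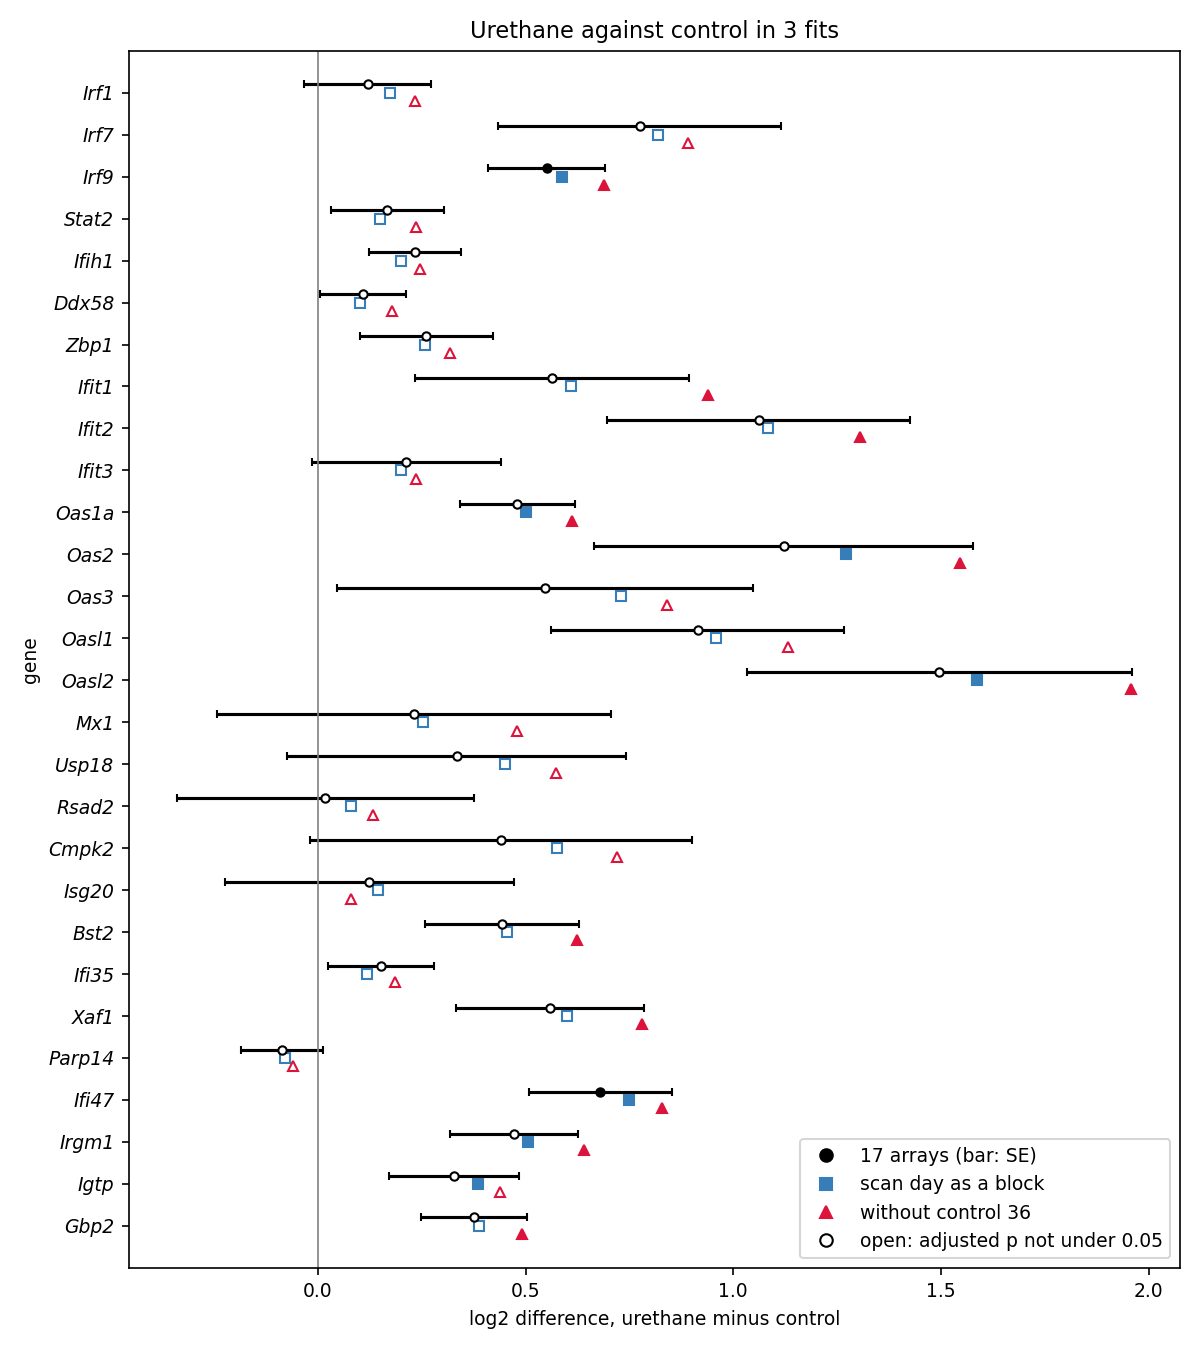
Log2 difference, urethane minus control, of the 28 tested members in 3 fits: all 17 arrays with the standard error as a bar (circles), scan day as a block (squares) and without control 36 (triangles), with filled symbols for an adjusted p under 0.05. The filled circles are Ifi47 and Irf9, 7 squares and 11 triangles are filled, and Parp14 is the 1 member whose circle lies below 0.

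The stretches around the transcription starts are shown for the members that rose and for those that passed in the most of the other settings tried, so that the response elements by which such genes are usually described can be seen. They are RefSeq promoters on GRCm38.p6, from 250 bases before to 50 bases after the annotated start, of the C57BL/6J reference and not of A/J. Motifs were searched by letters on both strands: GAAANNGAAA or TTTCNNTTTC for an ISRE and TTCNNNGAA for a GAS, with matches in capitals.
Irf9, chr14:55603735-55604034, plus strand: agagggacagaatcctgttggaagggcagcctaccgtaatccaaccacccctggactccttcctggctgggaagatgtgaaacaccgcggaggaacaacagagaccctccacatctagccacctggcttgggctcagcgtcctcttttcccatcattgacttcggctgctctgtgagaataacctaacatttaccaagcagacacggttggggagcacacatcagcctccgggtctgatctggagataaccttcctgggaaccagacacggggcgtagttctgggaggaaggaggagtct
Ifi47, chr11:49076337-49076636, plus strand: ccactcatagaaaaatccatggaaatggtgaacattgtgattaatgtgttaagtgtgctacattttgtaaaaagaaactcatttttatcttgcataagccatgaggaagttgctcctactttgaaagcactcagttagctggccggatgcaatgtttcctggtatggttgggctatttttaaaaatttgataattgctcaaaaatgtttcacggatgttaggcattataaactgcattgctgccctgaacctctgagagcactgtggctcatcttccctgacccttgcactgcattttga
Oas1a, chr5:120907476-120907775, minus strand: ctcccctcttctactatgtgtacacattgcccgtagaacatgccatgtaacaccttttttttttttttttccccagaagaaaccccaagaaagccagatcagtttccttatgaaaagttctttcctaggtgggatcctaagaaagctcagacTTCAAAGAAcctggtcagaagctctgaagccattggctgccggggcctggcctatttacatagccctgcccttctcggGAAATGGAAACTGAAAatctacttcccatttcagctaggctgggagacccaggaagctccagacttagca
Irgm1, chr11:48871371-48871670, minus strand: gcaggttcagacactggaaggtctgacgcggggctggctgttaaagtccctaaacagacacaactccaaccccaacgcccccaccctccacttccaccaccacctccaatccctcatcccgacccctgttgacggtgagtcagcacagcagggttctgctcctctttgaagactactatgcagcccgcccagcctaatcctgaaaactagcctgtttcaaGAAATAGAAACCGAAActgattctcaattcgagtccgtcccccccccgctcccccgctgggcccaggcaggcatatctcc
Oasl2, chr5:114896684-114896983, plus strand: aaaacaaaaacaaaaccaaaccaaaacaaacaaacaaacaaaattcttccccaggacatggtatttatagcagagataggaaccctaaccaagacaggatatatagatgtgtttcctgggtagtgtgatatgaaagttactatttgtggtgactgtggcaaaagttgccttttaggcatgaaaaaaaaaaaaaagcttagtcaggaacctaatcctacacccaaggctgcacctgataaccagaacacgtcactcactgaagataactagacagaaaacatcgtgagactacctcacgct
Oas1a held a pair of overlapping ISRE matches that began 20 and 14 bases before the start, and a GAS match that began 98 bases before it. Irgm1 held a pair of overlapping ISRE matches that began 30 and 24 bases before the start. The windows of Irf9, Ifi47 and Oasl2 held neither motif, which says only that these letters are not in these windows. A promoter window was listed for 25 of the 31 members, and 13 of these (52%) held an ISRE match in at least 1 window, beside 3.99% of all 27025 genes with a window. A GAS match was found in 7 of the 25 members (28%), beside 9.55% of all genes. By class, ISRE matches were found in 9 of 18 type I members and 3 of 5 type II members, and GAS matches in 5 and 2. A match is a description of the letters and not a binding site.

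Among the transcription factors of the response, 1 of 4 rose. Irf9 had log2 signals of 8.96 to 9.91 in controls, with a median of 9.08, and of 9.26 to 10.10 after urethane, with a median of 9.76. Every one of the 11 urethane arrays exceeded the control mean, and the groups overlapped through control 36 and control 37, of which the second was at 9.27 beside 9.26 on urethane 9. The difference was 0.55 (SE 0.14, 1.46-fold, adjusted p = 0.032), 0.57 within scan day 1 (adjusted p = 0.048) and 0.60 within scan day 2 (adjusted p = 0.063). It was 0.69 without control 36 (adjusted p = 0.0018). The call was lost when any 1 of control 6_13, 14, 33, 35 or 37 or urethane 32, 34, 35 or 36 was left out, with adjusted p of 0.053 to 0.10.

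Irf7, the factor that amplifies type I interferon production, ranged from 5.57 to 7.80 in controls (median 7.46) and from 7.32 to 9.02 after urethane (median 7.64). Its difference of 0.77 (SE 0.34) did not pass (adjusted p = 0.27). On scan day 2, urethane 33, 35 and 36 were at 8.92 to 9.02, above all other arrays, and control 35 at 5.57 stood below. Without those 3 urethane arrays the difference was 0.41, and without control 35 it was 0.45 (adjusted p = 0.60). Irf1, the factor most tied to interferon gamma, ranged from 10.55 to 11.62 in controls and from 10.79 to 11.72 after urethane, a difference of 0.12 (SE 0.15, adjusted p = 0.80), and the groups overlapped over most of their range. Stat2, the partner of Irf9, differed by 0.17 (adjusted p = 0.64).

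None of the 3 sensors of foreign or misplaced nucleic acid passed, with differences of 0.11 to 0.26. Zbp1, which senses nucleic acid in Z form and can start cell death, had the largest, 0.26 (SE 0.16, adjusted p = 0.49), from 8.68 to 9.78 in controls and 8.96 to 9.89 after urethane, and its other probe set differed by 0.98. Ifih1, which encodes the double-stranded RNA sensor MDA5, ranged from 10.54 to 10.80 in controls (median 10.70) and from 10.55 to 11.24 after urethane (median 10.99), a difference of 0.23 (SE 0.11, adjusted p = 0.33). For Ifih1, 8 of 11 urethane arrays exceeded the control mean. Ddx58, which encodes the RNA sensor RIG-I, differed by 0.11 by the probe set used and by -0.10 and -0.34 by its other probe sets, none past the threshold.

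The Ifit genes encode proteins that bind viral RNA and block its translation. None of the 3 rose with all arrays, and 2 rose without control 36. These 2, Ifit1 and Ifit2, were above the 40th percentile on 5 and 4 of 6 controls and on all 11 urethane arrays. They thus passed the filter of 6 arrays only with the urethane arrays, and their differences are given as a description. Ifit2 ranged from 5.15 to 8.22 in controls (median 7.43) and from 7.34 to 9.41 after urethane (median 7.81). The 3 lowest arrays of Ifit2 were controls 37, 35 and 6_13, and control 36 was the highest control. Its difference was 1.06 (SE 0.37, 2.09-fold, adjusted p = 0.13), 1.30 without control 36 (adjusted p = 0.041) and 0.69 without control 37 (adjusted p = 0.32). Ifit1 ranged from 6.32 to 8.90 in controls (median 6.69) and from 6.88 to 8.31 after urethane (median 7.66), and control 36 at 8.90 was higher than every other array. Its difference was 0.56 (SE 0.33, adjusted p = 0.46), and 0.94 without control 36 (adjusted p = 0.047). Ifit3 differed by 0.21 (adjusted p = 0.75), and the 3 genes lie near each other on chromosome 19.

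The oligoadenylate synthetases make the messenger that activates the antiviral nuclease RNase L, and the Oas-like genes encode related proteins. With all arrays 0 of the 5 passed. Oas2 and Oasl2 were above the 40th percentile on 3 of 6 controls and on all 11 urethane arrays, Oasl1 on 3 and 10 and Oas3 on 2 and 7, so these 4 passed the filter of 6 arrays only with the urethane arrays, and their differences are given as a description. With scan day as a block, and also without control 36, the same 3 passed: Oas1a, Oas2 and Oasl2. Oas1a ranged from 9.93 to 10.93 in controls (median 10.17) and from 10.45 to 11.15 after urethane (median 10.72), and all 11 urethane arrays were above the other 5 controls, which reached 10.40, with control 36 alone overlapping them. Its difference was 0.48 (SE 0.14, 1.40-fold, adjusted p = 0.062), and it was alike on both scan days, at 0.49 and 0.51. It was 0.50 with the block (adjusted p = 0.020) and 0.61 without control 36 (adjusted p = 0.0047).

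Oasl2 had the largest difference of all members. It ranged from 4.99 to 8.84 in controls (median 6.48) and from 6.43 to 8.61 after urethane (median 8.34). Controls 6_13, 35 and 37 were at 5.64 or below, where no urethane array lay, and control 36 was the highest of all 17 arrays. The difference was 1.50 (SE 0.46, adjusted p = 0.089), 1.59 with the block (adjusted p = 0.025) and 1.96 without control 36 (adjusted p = 0.0058). Oas2 ranged from 4.70 to 8.55 in controls (median 6.10) and from 6.55 to 8.53 after urethane (median 7.57), with control 36 again the highest array. Its difference was 1.12 (SE 0.46, adjusted p = 0.23), 1.27 with the block (adjusted p = 0.033) and 1.55 without control 36 (adjusted p = 0.032). Oasl1 and Oas3 differed by 0.91 (adjusted p = 0.20) and 0.55 (adjusted p = 0.69), and Oas3 by 0.0010 on scan day 1 against 1.16 on scan day 2. These genes lie in groups on chromosome 5, Oas2 beside Oas3 with Oas1a near them, and Oasl2 beside Oasl1.

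**Figure D2:**
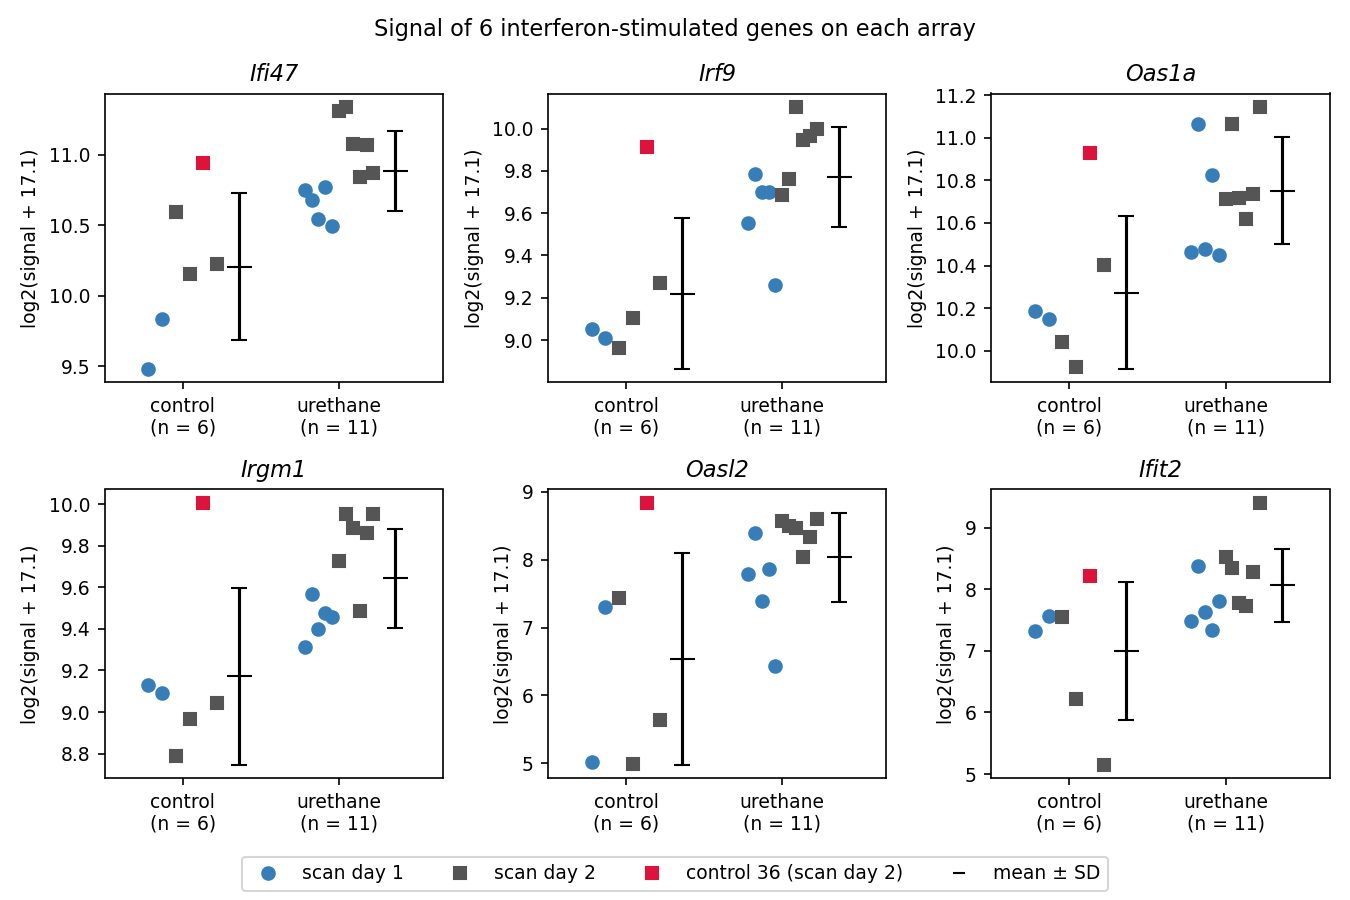
Log2 of signal plus 17.1 of 6 members on each of the 6 control and 11 urethane arrays, by scan day, with the mean and SD of each group beside the points and each panel on its own axis. Control 36 (red) lies within or above the urethane arrays in every panel, and in the panels of Oas1a and Irgm1 the other 5 controls all lie below all 11 urethane arrays.

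Mx1, an antiviral GTPase of the dynamin family, ranged from 4.42 to 7.09 in controls and from 4.57 to 7.30 after urethane, a difference of 0.23 (SE 0.47, adjusted p = 0.89). Usp18, the protease that removes Isg15 from proteins and damps the type I receptor, ranged from 5.49 to 7.89 in controls and from 5.53 to 8.28 after urethane, a difference of 0.33 (SE 0.41, adjusted p = 0.79). Both groups covered nearly the same range for both genes. The differences of both were below 0 without urethane 33, 35 and 36, at -0.16 for Mx1 and -0.07 for Usp18. Of the 28 members, 6 exceeded the 40th percentile of the array on at most 3 controls (Oas2, Oas3, Oasl1, Oasl2, Mx1 and Cmpk2), and 18 did so on all 17 arrays. The remaining members, Irf7, Ifit1, Ifit2 and Usp18, did so on 4 or 5 controls. All members but the 18 thus passed the filter on low signal only with the urethane arrays.

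Of the 7 other effectors tested, 0 rose with all arrays and 2, Bst2 and Xaf1, rose without control 36. Bst2 encodes tetherin, which holds budding virus particles on the cell surface. It ranged from 9.25 to 10.62 in controls (median 9.60) and from 9.40 to 10.82 after urethane (median 10.11), and 10 of 11 urethane arrays were above the control mean. The difference was 0.44 (SE 0.19, adjusted p = 0.24), 0.62 within scan day 1 (adjusted p = 0.012), 0.36 within scan day 2 (adjusted p = 0.53) and 0.62 without control 36 (adjusted p = 0.029). Xaf1, which encodes a protein that promotes cell death, ranged from 8.01 to 9.73 in controls (median 8.53) and from 8.57 to 9.98 after urethane (median 9.24). Its difference was 0.56 (SE 0.23, adjusted p = 0.23) and 0.78 without control 36 (adjusted p = 0.027), but -0.15 by its other probe set. Ifi35 ranged from 11.84 to 12.14 in controls and from 11.61 to 12.48 after urethane, a difference of 0.15 (SE 0.13, adjusted p = 0.65). For Ifi35, urethane 33, 35 and 36 were the 3 lowest of all 17 arrays, and without them the difference was 0.33 (adjusted p = 0.036). Cmpk2, Isg20, Parp14 and Rsad2 did not pass, with differences of -0.09 for Parp14 to 0.44 for Cmpk2.

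The interferon-inducible GTPases act on the membranes of vacuoles that hold microbes, and all 4 are best known as targets of interferon gamma. With all arrays 1 of the 4, Ifi47, rose. With the block 3 rose (Ifi47, Irgm1 and Igtp), and without control 36 a partly different 3 (Ifi47, Irgm1 and Gbp2). Ifi47 ranged from 9.48 to 10.94 in controls (median 10.19) and from 10.49 to 11.34 after urethane (median 10.84). All 11 urethane arrays were above the control mean, and only controls 36 and 33 reached the range of the urethane arrays. The difference was 0.68 (SE 0.17, 1.60-fold, adjusted p = 0.031), 0.99 within scan day 1 (adjusted p = 0.00096) and 0.60 within scan day 2 (adjusted p = 0.038). It was 0.75 with the block (adjusted p = 0.00030) and 0.83 without control 36 (adjusted p = 0.0033). The call was lost when any 1 of control 6_13, 14, 35 or 37 or urethane 32 or 35 was left out, with adjusted p of 0.051 to 0.095.

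Irgm1, which regulates the other GTPases of its family, ranged from 8.79 to 10.01 in controls (median 9.07) and from 9.31 to 9.96 after urethane (median 9.57). Control 36 at 10.01 was the highest of all arrays, and the other 5 controls, up to 9.13, lay below all 11 urethane arrays. The difference was 0.47 (SE 0.15, adjusted p = 0.11), 0.51 with the block (adjusted p = 0.027) and 0.64 without control 36 (adjusted p = 0.0043). Igtp ranged from 8.90 to 9.94 in controls (median 9.36) and from 9.34 to 10.27 after urethane (median 9.72), a difference of 0.33 (SE 0.16, adjusted p = 0.33) and of 0.39 with the block (adjusted p = 0.041). Gbp2, a guanylate-binding protein, ranged from 10.01 to 10.80 in controls (median 10.13) and from 10.12 to 10.94 after urethane (median 10.65). Its difference was 0.38 (SE 0.13, adjusted p = 0.13), 0.49 within scan day 1 (adjusted p = 0.037), 0.33 within scan day 2 (adjusted p = 0.36) and 0.49 without control 36 (adjusted p = 0.015). Neither Gbp2 nor Igtp passed with all 17 arrays and no block, and both passed in the fit that joined the block with leaving out control 36. With the block alone Gbp2 did not pass (adjusted p = 0.060), and without control 36 alone Igtp did not (adjusted p = 0.12).

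The type I and the type II members were compared by counts and medians, with no test of the classes. With all arrays 0 of 21 type I members and 1 of 5 type II members rose. Blocking on scan day gave 3 and 3, and leaving out control 36 gave 7 and 3. Oas2 and Oasl2 are in both of these type I counts, and Ifit1 and Ifit2 in the second. All 4 of these genes passed the filter only with the urethane arrays. The median differences were 0.44 and 0.38 with all arrays, 0.30 and 0.34 within scan day 1, and 0.49 and 0.41 within scan day 2. On each array the mean log2 signal of the type II members was set against that of the type I members, which can be read only as a change between arrays. This type II minus type I value was 1.71 to 2.45 in controls (median 1.84) and 1.37 to 2.12 after urethane (median 1.94). The groups overlapped over most of that range. The lowest value was that of urethane 36 and the highest that of control 35.

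**Figure D3:**
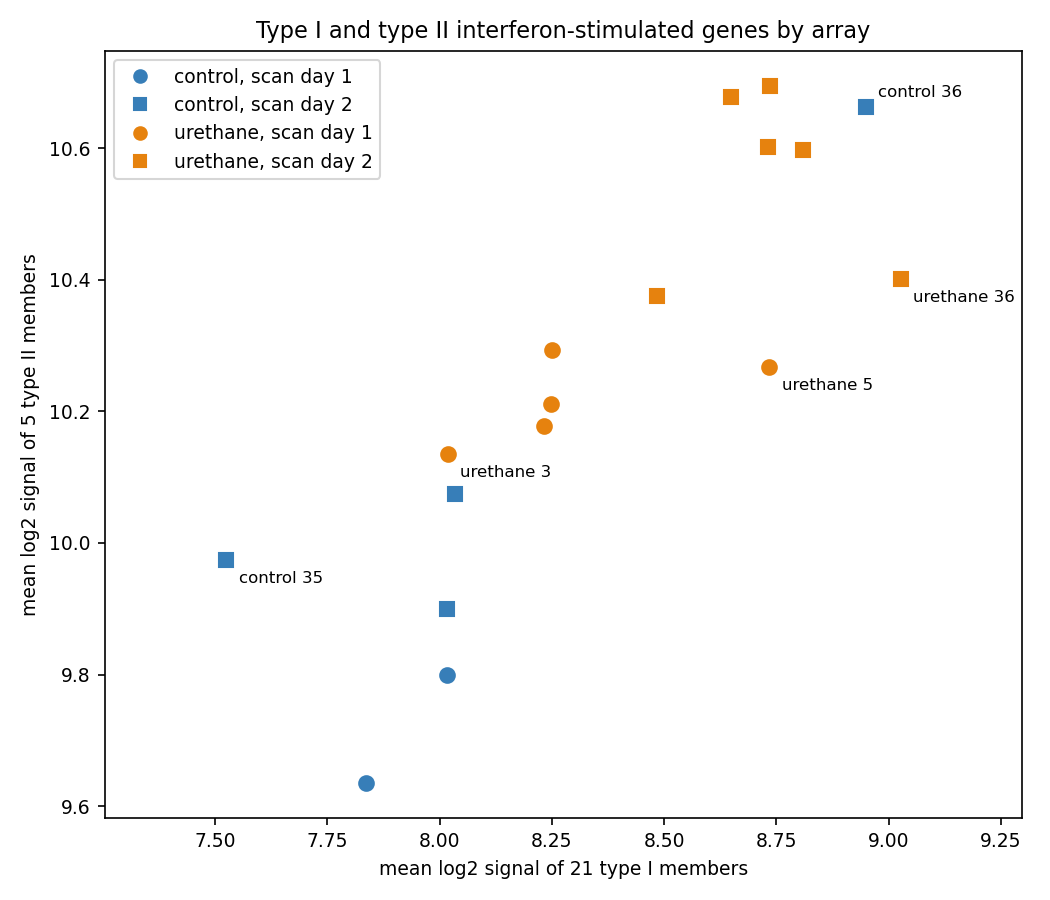
Mean log2 signal of the 21 tested type I members (horizontal) and of the 5 type II members (vertical) on each of the 17 arrays, coloured by group and shaped by scan day. Control 36, at 8.95 and 10.66, lies among the urethane arrays of scan day 2, and the other 5 controls, up to 8.03 and 10.07, lie toward the lower left.

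Among the controls, 1 array stood apart in the members. The mean log2 signal over the 28 members was 9.31 on control 36 and 8.08 to 8.47 on the other 5 controls, and 8.51 to 9.31 on the urethane arrays. The other 5 controls were thus all below the lowest urethane array, urethane 3, while control 36 was as high as the highest, urethane 36. Control 36 was the highest control for 22 of the 28 members, beside 15.7% of all genes, and it was the lowest control for 0. It was above the urethane mean for 24 members, beside 54.0% of all genes, while each of the other controls was above it for 3 to 6 members. No member had groups that did not overlap over all 17 arrays, beside 0.269% of all genes that lay wholly above after urethane. All 11 urethane arrays were above the control mean for 7 members, beside 4.53% of all genes. For 2 members, Oas1a and Irgm1, all 11 urethane arrays were above the other 5 controls, beside 1.31% of all genes. Control 36 was set aside because it was high in these same members, so that share is not a like background.

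**Figure D4:**
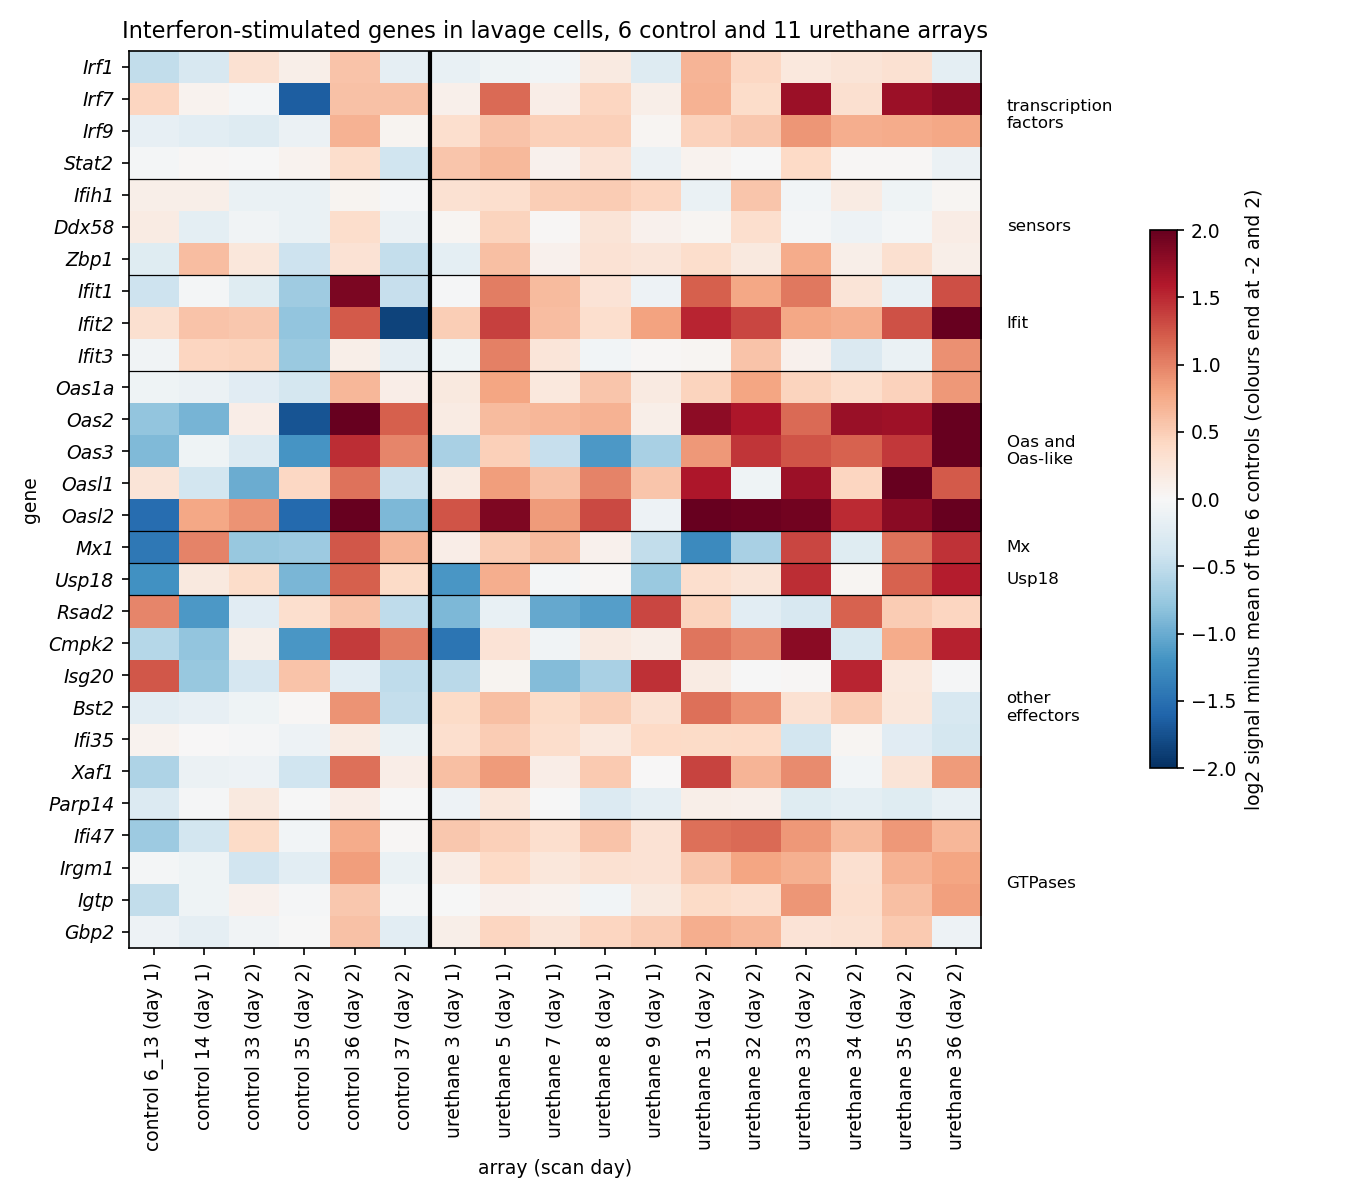
Log2 signal of the 28 tested members on each array minus the mean of the 6 controls for that gene, with genes in rows by role, arrays in columns by group and scan day, and colours that end at -2 and 2. Control 36 is above the control mean for 27 members against 6 to 11 on each of the other controls, and the urethane arrays are above it for 17 to 26.

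Lavage is a mixture, and in whole-lavage RNA more cells of a type and more RNA per cell cannot be told apart. Among 13 tested T cell markers 3 rose after urethane, Ms4a4b by 1.98 (adjusted p = 0.034), Cd3d by 1.84 (adjusted p = 0.039) and Il7r by 1.67 (adjusted p = 0.018), and 0 fell. In that fit 2.00% of all genes rose and 1.14% fell. With the block 7 of the T cell markers rose and 1 fell, Cd2 (-0.90, adjusted p = 0.0016), beside 4.31% and 3.44% of all genes. With all arrays the median difference of the list was 0.85, and without urethane 33, 35 and 36 it was 0.53 and 0 rose. The mean log2 signal of the list was 6.24 to 8.74 in controls and 7.41 to 9.20 after urethane, and its summed signal was 9270 to 15600 and 9500 to 13200. Cd3d exceeded the 40th percentile on 1 of 6 controls and all 11 urethane arrays. It thus passed the filter on low signal only with the urethane arrays, and its difference is given as a description. Of 8 NK cell markers 0 rose, with a mean of 5.86 to 7.11 in controls and 5.87 to 7.34 after urethane and a summed signal of 390 to 1420 and 448 to 1740, and Ncr1 exceeded the 40th percentile on 1 array. Of 7 markers of plasmacytoid dendritic cells, the cells best known for making type I interferon, 0 rose, with a mean of 7.55 to 8.07 in controls and 7.13 to 8.57 after urethane and a summed signal of 3560 to 4670 and 3250 to 4610.

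Control 36 had the highest control mean for T cell markers, at 8.74 against at most 7.93, for NK cell markers, at 7.11 against at most 6.80, for dendritic cell markers, at 8.20 against at most 7.63, for neutrophil markers, at 9.07 against at most 8.53, and for plasmacytoid dendritic cell markers, at 8.07 against at most 8.04. It had the lowest mean of erythroid markers, at 6.35 against at least 7.15. By summed signal control 36 was the highest control for NK cell markers (1420 against at most 1150) and neutrophil markers (10900 against at most 5880). By that measure another control was higher for T cell markers (15600 against 14200), dendritic cell markers (4440 against 4160) and plasmacytoid dendritic cell markers (4670 against 4350). Of 13 airway epithelial markers 5 fell after urethane and 0 rose, beside 1.14% of all genes that fell and 2.00% that rose. Their mean was 9.39 to 10.30 in controls and 8.64 to 9.75 after urethane, and their summed signal was 21600 to 41600 and 9970 to 16600. Of 9 neutrophil markers 1 rose, with a mean of 7.80 to 11.40 after urethane that was highest on urethane 34. Of the 18 alveolar macrophage markers 2 rose, Fabp4 by 1.03 (adjusted p = 0.00090) and Car4 by 0.96 (adjusted p = 0.022), of 7 monocyte markers 1 fell, Cx3cr1 by 1.57 (adjusted p = 0.031), and of 8 dendritic cell markers 1 fell, Cd83 by 0.73 (adjusted p = 0.0094), all 4 named after their values were seen. The median differences of the macrophage, monocyte and dendritic cell lists were -0.01, -0.22 and 0.49, with 8 of 18, 1 of 7 and 6 of 8 above 0. With the block, Krt79 (-0.58) and Il1rn (-0.54) of the macrophage list fell and Clec10a of the dendritic cell list rose (0.95), also named after their values were seen. On scan day 1 alone, with 2 control arrays, 3 of the 7 monocyte markers rose, beside 4.92% of all genes. The part of these cells in the members' signal was not tested.

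Within the scan days the members were mostly higher after urethane on both. For 24 of 28 members the difference was above 0 on each day, beside 23.7% of all genes. Scan day 1 alone gave 5 members that rose (Irf9, Oas2, Bst2, Ifi47 and Gbp2), 17.9% of them beside 4.92% of all genes. Of these, Oas2 passed the filter on low signal only with the urethane arrays. Scan day 2 alone, the day of control 36, gave 1 (Ifi47), 3.57% beside 2.36% of all genes, which is near that background. The members below 0 were Isg20 and Rsad2 on scan day 1 and Parp14 and Ifi35 on scan day 2, and none of these passed. The difference between the days was tested as an interaction, which called 0.0822% of all genes and 0 members, and the lowest adjusted p of a member was 0.34.

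**Figure D5:**
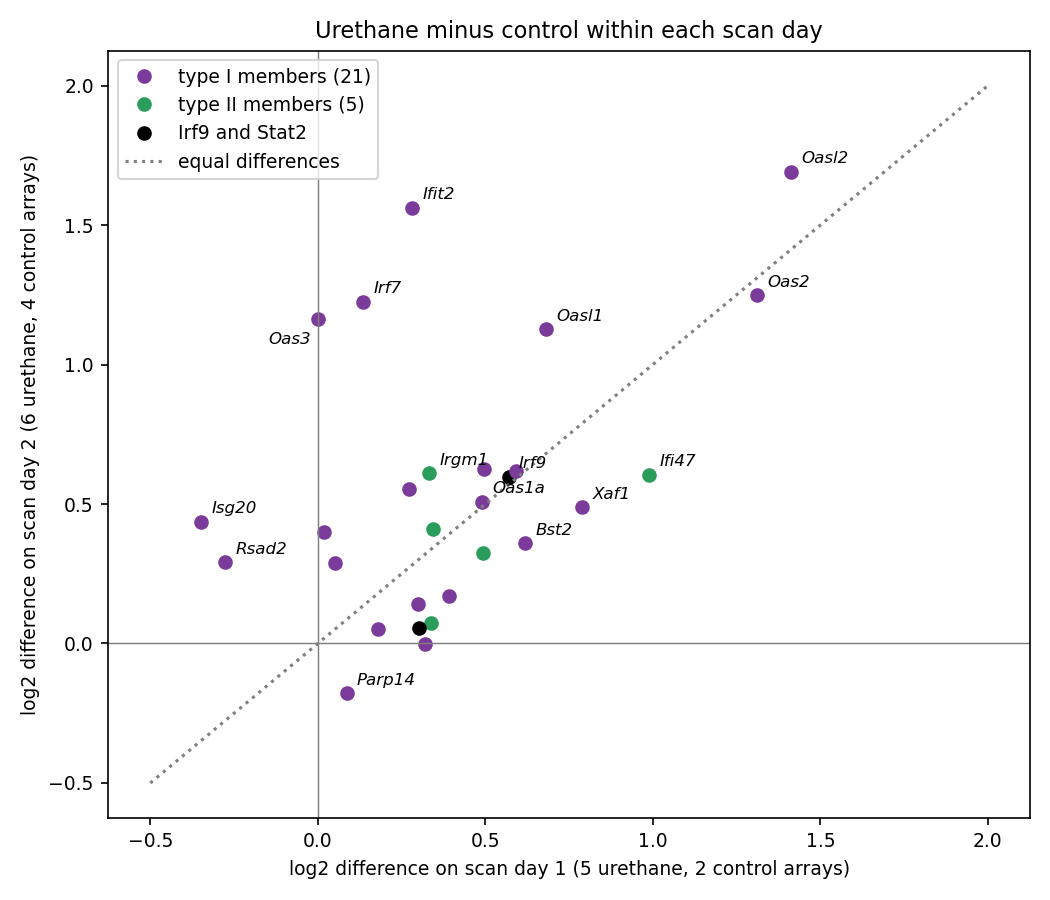
Log2 difference, urethane minus control, of the 28 tested members within scan day 1 (horizontal, 5 urethane and 2 control arrays) and scan day 2 (vertical, 6 urethane and 4 control arrays), coloured by class, with a dotted line of equal differences. Oasl2 and Oas2 are at 1.41 and 1.31 on scan day 1 and at 1.69 and 1.25 on scan day 2, while Ifit2, Irf7 and Oas3 are at 0.28, 0.13 and 0.0010 on scan day 1 and at 1.56, 1.23 and 1.16 on scan day 2, with no interaction past the threshold.

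Other genes of the pathway were read by the same test, in which 2.00% of all genes rose and 1.14% fell. Of 5 tested interferons and inducing cytokines 0 rose and 0 fell. Ifnb1, interferon beta, ranged from 5.26 to 7.46 in controls and from 5.35 to 8.69 after urethane, a difference of 0.10 (adjusted p = 0.97). Ifng, interferon gamma, exceeded the 40th percentile on 1 control and 1 urethane array and was not tested. Of 10 receptor chains and kinases 1 rose, Il10rb, a chain shared by the receptors of type III interferon and interleukin 10, by 0.54 (SE 0.11, adjusted p = 0.0094). The type I receptor chains Ifnar1 and Ifnar2 differed by -0.10 (adjusted p = 0.77) and 0.42 (adjusted p = 0.19, and 0.034 with the block), and the type II chains Ifngr1 and Ifngr2 by 0.18 (adjusted p = 0.59) and 0.31 (adjusted p = 0.39).

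Of 18 genes that lead to interferon production 1 rose, the kinase Ikbke, which can phosphorylate the factors that start interferon transcription, by 1.16 (SE 0.30, adjusted p = 0.032). Of 13 negative regulators 0 rose and 0 fell. Of 40 other type I interferon-stimulated genes 1 rose, Ifitm2, a membrane protein that hinders virus entry, by 0.85 (SE 0.17, adjusted p = 0.0061). This was 2.50% of the list beside 2.00% of all genes, which is near that background. With the block 9 of the 40 rose, 22.5% beside 4.31% of all genes, and without control 36 also 9, beside 3.26%. Of 20 other type II genes 2 rose, Gbp6, a guanylate-binding protein, by 1.26 (SE 0.34, adjusted p = 0.047) and Cd274, the checkpoint ligand PD-L1, by 0.35 (SE 0.09, adjusted p = 0.047). The medians of these lists were 0.17 for other type I and 0.25 for other type II genes, against -0.03 over all genes. With all arrays 0 genes of these 6 lists fell. In other fits 3 fell, named after their values were seen: Il12a by 1.47 without urethane 33, 35 and 36 (adjusted p = 0.036), Trim28 by 0.36 with the block and without control 36 (adjusted p = 0.049) and Fcgr1 by 0.77 on scan day 2 alone (adjusted p = 0.029). Without urethane 33, 35 and 36, Il10rb and Ifitm2 still passed (adjusted p = 0.026 and 0.017), and Ikbke, Gbp6 and Cd274 did not (adjusted p = 0.079, 0.11 and 0.082). Control 36 was the highest control for Il10rb, Ikbke, Ifitm2, Gbp6 and Cd274, as it was for Ifi47 and Irf9.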

How the data were processed

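RNA of bronchoalveolar lavage cells was measured on 17 Affymetrix Mouse430_2 arrays, 6 control and 11 urethane. The deposited values are probe set intensity on a linear scale, made by the authors with MAS5, per the submitters' processing notes, and their mean after trimming 2% at each end was 500 on every array. Background correction and scaling were therefore the authors' own. The scan day was read from the scan files, where it coincided with the chip lot. Of 45101 probe sets, 34945 had 1 gene in the platform annotation and 932 had several, and the latter were not named.

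From these values log2 of the signal plus 17.1 was computed, where 17.1 is the 20th percentile signal of the median array. Probe sets above the 40th percentile of their array on at least 6 arrays were kept, and the one of highest mean stood for each gene. Urethane was tested against control by limma (version 3.58.1, run in R version 4.3.3) through lmFit and trended eBayes, with two-sided p-values. Arrays have no read depth, so precision depends on how many there are. Tested on simulated data of 13390 genes, the fit found 34% of the changes of 1.5-fold and 65% of those of 2-fold, while 7.48% of its 107 calls were false. The members, the gene lists and the classes were chosen with earlier results of these data known.

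Members were named with full values where they passed with all arrays, with scan day as a block or without control 36, or had the largest difference or highest mean of their role. Genes that are no members were named where they were the largest changes of their list, or interferons or their receptor chains. Promoters came from RefSeq on GRCm38.p6. Alternatives covered scaling, pseudocount, filter, probe set, variance model, covariates, blocks and arrays. Plots used matplotlib 3.10.9 under Python 3.11.15. Some list genes are not analysed here.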

Additional observations from a re-analysis of the deposited data

Results flagged for a closer look

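Single control arrays lay far from the other controls for 6 of the 19 named members whose controls were examined, by the gap to the nearest array as a share of the range. Chance alone marks about 5% of such groups. Ifit1, Bst2 and Gbp2 were among the 19 only because they passed without control 36. The list thus favoured members with a high control 36, and the 5% is not a like background for it. Control 36 lay above the other controls for 5 of them: Irf9 at 9.913 with the next control at 9.271, Ifit1 at 8.903 with the next at 6.985, Bst2 at 10.63 with the next at 9.751, Irgm1 at 10.01 with the next at 9.13, and Gbp2 at 10.8 with the next at 10.21, all in log2 signal. Control 35 lay below the other controls for Irf7, at 5.573 with the next at 7.183.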

How the results depend on the processing

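Over 35 other settings, the 19 named members gave 663 values, of which 583 kept their direction and side of the threshold, 28 lost the call, 42 gained it and 10 changed sign. The 421 genes called over the array became 182 with array medians set equal, 205 with the probe set of largest variance, 250 with no variance trend, 1038 when blocked on scan day, 974 on scan day 1, 636 on scan day 2, 872 with the 20th percentile signal as a covariate and 1199 with the block and without control 36, and 218 to 634 with 1 array left out (218 without control 35, 220 without control 33, 634 without control 36). The 2 members that rose became 0 with the probe set of largest variance, with no variance trend and with array weights, 7 with the block, 5 and 1 on the scan days, 5 with the 20th percentile covariate, 1 with RNA quality ratios, 13 with the block and without control 36, 1 without urethane 33, 35 and 36, and 0 to 11 with 1 array left out. That count was 0 without control 6_13, 14, 35 or 37 or urethane 32 or 35, 1 without control 33 or urethane 34 or 36, 4 without urethane 9 and 11 without control 36. With array medians set equal it stayed at 2, but these were Ifit2 (1.24, adjusted p = 0.047) and Oasl2 (1.70, adjusted p = 0.010), not Irf9 (0.77, adjusted p = 0.24) and Ifi47 (0.90, adjusted p = 0.17). Ifit2 and Oasl2 passed the filter on low signal only with the urethane arrays. Signs changed with RNA quality ratios for Mx1 (-0.21) and Usp18 (-0.052), without urethane 33, 35 and 36 for Mx1 (-0.16) and Usp18 (-0.068), without control 6_13 for Mx1 (-0.054, up to 0.48 without control 36), on scan day 2 for Ifi35 (-0.00030) and with the probe set of largest variance for Xaf1 (-0.15). The cause of these changes was not tested. The medians of the type I and type II members stayed at 0.22 to 0.62 and 0.33 to 0.59.

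Numbers 33, 35 and 36 occur in both groups. Arrays that share one did not deviate together (correlations of -0.0067, -0.16 and -0.17). Among urethane 33, 35 and 36, control 33 correlated best with urethane 33, and controls 35 and 36 did not with their own number. With so few numbers this check cannot exclude pairing, and the main fit did not take the numbers as pairs. With the number as a replicate block 3145 genes and 7 members passed, and Irf1 (-0.22), Bst2 (-0.22) and Ifi35 (-0.33) changed sign.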

Other observations

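Isg20, an antiviral exonuclease, and Rsad2, which encodes the antiviral enzyme viperin, varied between arrays without following the groups, and were chosen for this description after their values were seen. The 4 arrays of highest Isg20, from 8.14 to 9.10 in log2 signal, were urethane 34, urethane 9, control 6_13 and control 35. The same 4 arrays had the highest mean of the 3 tested erythroid markers (Hba-a1, Alas2 and Slc4a1), from 8.38 to 8.88, while on the other arrays that mean was 4.51 to 7.69 and Isg20 was 6.70 to 7.78. The 3 arrays of highest Rsad2, from 9.60 to 9.96, were urethane 9, urethane 34 and control 6_13. Cmpk2, the neighbour of Rsad2 on chromosome 12, did not share this order and was highest on urethane 33. The part of red blood cells in these values was not tested.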
